A study of Mus musculus with 4 samples.

Results

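The semaphorins, ephrins, netrins and Slits and their plexin, neuropilin, Eph and Robo receptors were followed in cultured mouse calvarial osteoblasts. The members were the genes whose single symbol in the platform annotation carried one of these family names, which gave 62 of the 22180 genes named on the array, each read from its row with the highest mean. They comprised 20 semaphorins, 9 plexins, 2 neuropilins, 13 Eph receptors, 8 ephrins, 3 netrins, 3 Slits and 4 Robos. RNA came from osteoblast progenitors of newborn calvaria that had been kept for 21 days in medium with ascorbate and glycerol phosphate. One group carried floxed Runx3 alleles and Col1a1-cre (Runx3f/f/Col1a1-cre), so that deletion of the transcription factor Runx3 was directed to cells using the type I collagen promoter, and the other was labelled WT. Each group had 2 arrays, called biological replicates 1 and 2. Which Runx3 exons were floxed, whether the controls were littermates, and how many mice went into a culture are not stated in the labels.

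These families were first described as cues that steer growing axons. Secreted or membrane-bound ligands bind receptors on the neighbouring cell or its extensions, and most receptors act on the cytoskeleton through small GTPases, repelling or attracting the cell. The same molecules work in bone. In mice, Sema3a acting through Nrp1 protects bone, Sema4d made by osteoclasts restrains osteoblasts through Plxnb1, and ephrin-B2 on osteoclast precursors signals with Ephb4 on osteoblasts in both directions.

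Values are given on the deposited scale, taken to be log2, on which a difference of 1 is a doubling. Median levels over the 17841 genes tested were 7.53 for replicate 1 and 7.81 for replicate 2 in either group. Runx3 itself read 7.94 and 8.06 on the arrays labelled as mutant and 7.45 and 7.87 on the WT arrays. It was not lower where it should be deleted, and the first group is therefore called mutant-labelled. The labels do not define the deleted part, and whether the Runx3 probes lie outside it was not tested. The groups also differed in markers of other cells and in sex-linked genes. Of 16 macrophage markers 14 were at least 1.5-fold lower in both replicates, beside 1.15% of all tested genes. The summed linear signal of the 16 was 2912 and 3291 on the mutant-labelled arrays against 9208 and 9971 in wild type. The Y-linked gene Kdm5d lay 2.27 log2 units higher in the mutant-labelled group and Xist was at -1.35. The part of these differences in the results below was not tested. Efnb1, Plxna3 and Plxnb3 are the guidance genes on the X chromosome. In bulk RNA, fewer cells of a type and less RNA per cell cannot be told apart.

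Of the 62 guidance genes 60 passed the filter on dim genes, which asked for at least 2 of 4 arrays above 4.71, the 90th percentile of olfactory and vomeronasal receptor rows; Epha6 and Robo3 did not pass. With limma and Benjamini-Hochberg adjustment over all 17841 genes, 0 guidance genes passed an adjusted p of 0.05, where 0% of all tested genes did. At an unadjusted limma p under 0.05 there were 7 of 60, beside 3.96% of all tested genes, 6 higher (2.06% of all tested genes) and 1 lower (1.9%). The 7 were Slit2, Epha7, Epha3, Epha1, Sema3d, Plxnc1 and Plxna2. Allowing the variance to depend on intensity left 1 past the adjusted threshold, Slit2, beside 0.275% of all tested genes. A second quantile normalization with the replicate number as a block left Epha7 and Sema3d, beside 2.3% of all genes tested there.

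Replicates 1 and 2 each put the groups 1.5-fold or more apart, with 1 direction, for 3 guidance genes (5% of 60, beside 2.63% of all tested genes). All 3 were higher in the mutant-labelled group (1.47% of all tested genes were that much higher and 1.15% lower): Slit2, Epha7 and Epha3. Just inside that limit was Epha3, whose smaller difference was 1.55-fold. Just outside it were Epha1, lower by at least 1.47-fold in both replicates, and Sema3d, higher by at least 1.47-fold. Differences of any size had the same sign in both replicates for many more genes. In this way 16 were higher (26.7%, beside 16.8% of all tested genes) and 18 lower (30%, beside 19.5%). In 21 genes the arrays of the groups did not overlap (35%, beside 16.9%), 9 of them higher (15%, beside 7.66%) and 12 lower (20%, beside 9.25%).

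**Figure D1:**
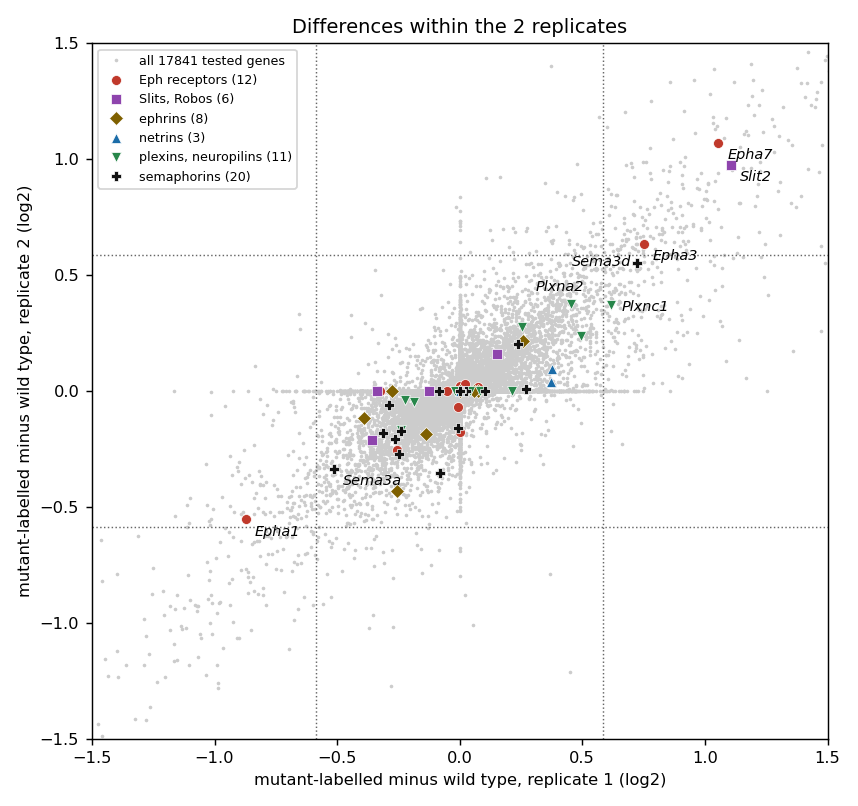
Difference between the mutant-labelled and the wild-type array (log2) within replicate 1 on the horizontal axis and within replicate 2 on the vertical axis, for 60 guidance genes (coloured symbols by family) and all 17841 tested genes (grey; 124 of them, and 0 guidance genes, lie outside the axes). Dotted lines mark 1.5-fold; Epha7, Slit2 and Epha3 lie beyond both lines at the upper right, and Epha1, Sema3d and Plxnc1 beyond 1 of them.

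The median difference over the 60 genes was 0, as it was over all tested genes, while the median size of a difference, sign ignored, was 0.14 log2 units against 0.04. Both medians depend on values that the mutant-labelled and wild-type arrays of a replicate shared exactly. The counts above of genes 1.5-fold apart, of the same sign and without overlap depend on them too. A gene with an equal value in either replicate could not enter those counts. A gene equal in both replicates had a difference of 0, so it could not pass the unadjusted limma threshold either. Equal values were rarer among the guidance genes. The larger shares of guidance genes in those counts and past the unadjusted threshold were not separated from this. Such equal values occurred in both replicates for 8 guidance genes (13.3%, beside 25.7% of all tested genes), in 10 for replicate 1 (16.7%, beside 35.8%) and in 24 for replicate 2 (40%, beside 50.2%). The origin of these equal values is not stated in the labels, so an equal value does not establish that a gene was unchanged.

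**Figure D2:**
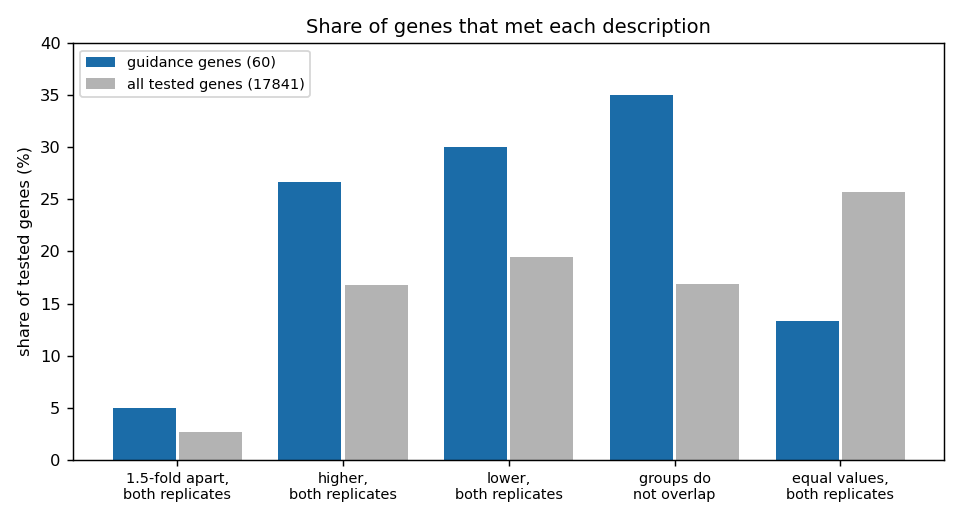
Share of the 60 tested guidance genes (blue) and of all 17841 tested genes (grey) that met each of 5 descriptions, in percent of the genes tested. The guidance genes reached 35% for groups that did not overlap, beside 16.9%, and 13.3% for equal values in both replicates, beside 25.7%.

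The promoters of the 3 genes farthest apart are shown because Runx3 binds DNA through a known core motif, which was looked for next to their starts. Each line gives the 250 bases before the RefSeq start on the gene's own strand, from RefSeq's GRCm38.p6 table, with capitals for the GC box GGGCGG (or its reverse complement CCGCCC) and for TATAAA on either strand.
Slit2, chr5:47982905-47983154, plus strand: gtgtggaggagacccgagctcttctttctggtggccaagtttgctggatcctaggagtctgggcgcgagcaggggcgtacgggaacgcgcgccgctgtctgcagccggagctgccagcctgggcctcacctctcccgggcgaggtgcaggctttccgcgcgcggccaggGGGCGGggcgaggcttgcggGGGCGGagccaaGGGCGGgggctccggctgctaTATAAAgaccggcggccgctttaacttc
Epha7, chr4:28812881-28813130, plus strand, first of its listed starts: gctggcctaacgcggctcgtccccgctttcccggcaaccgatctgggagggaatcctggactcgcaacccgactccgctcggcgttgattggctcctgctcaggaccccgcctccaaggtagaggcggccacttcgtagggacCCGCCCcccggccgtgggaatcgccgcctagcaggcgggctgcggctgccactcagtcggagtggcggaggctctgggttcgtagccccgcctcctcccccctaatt
Epha3, chr16:63864176-63864425, minus strand: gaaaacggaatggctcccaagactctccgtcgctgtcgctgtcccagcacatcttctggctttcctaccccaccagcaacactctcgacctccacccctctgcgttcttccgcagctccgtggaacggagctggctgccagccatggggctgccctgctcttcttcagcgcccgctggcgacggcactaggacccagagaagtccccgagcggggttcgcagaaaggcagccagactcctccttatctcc
The core Runt motif, searched as TGTGGT and TGCGGT on both strands was found in 0 of these windows. The GC boxes and TATAAA did not overlap each other. A TATAAA began 28 bases before the start of Slit2, and GC boxes began 81, 61 and 49 bases before it. Epha7 had 1 GC box, 107 bases before its start, and Epha3 had none. Over the 70 listed starts of the 54 guidance genes with a promoter entry, 13 windows (18.6%) held a Runt motif, against 18.6% of all 32851 windows in the table, which also covers noncoding genes. GC boxes were in 72.9% of the guidance windows and 32.7% of all, TATAAA in 2.86% and 12.4%, and the median GC content was 64.2% and 52.4%.

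Slit proteins are secreted ligands, and Robo receptors bind them and mostly repel the cell. Slit2 read 11.56 and 11.58 on the mutant-labelled arrays and 10.45 and 10.61 in wild type. Both mutant-labelled arrays lay well above both wild-type arrays, by 1.11 in replicate 1 and 0.98 in replicate 2. Its mean difference was 2.06-fold (11.57 ± 0.02 against 10.53 ± 0.11, SD, n = 2 per group; log2 difference 1.04, SE 0.13, limma adjusted p = 0.431). Slit3, which osteoblasts and osteoclasts make and which acts on bone vessels and bone formation in mice, went the other way. It read 11.36 and 11.32 against 11.71 and 11.53, without overlap, at -0.28 (SE 0.13, limma adjusted p = 1). Slit1 was at 5.74 and 6.30 against 6.07 and 6.30, lower in replicate 1 and equal in replicate 2.

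The receptors of the Slits differed less. Robo1 read 10.94 and 10.93 against 10.78 and 10.77, a difference of 0.16 (SE 0.11) that was 0.15 and 0.16 within the replicates and left the groups apart. Robo2, which lies next to Robo1 with 0 coding genes between them, read 11.34 and 11.30 against 11.46 and 11.30 and was equal in replicate 2. Robo4, an endothelial member, held equal values in both replicates, at 5.07 and 5.22, and Robo3 lay below the floor on all arrays, from 4.17 to 4.47.

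**Figure D3:**
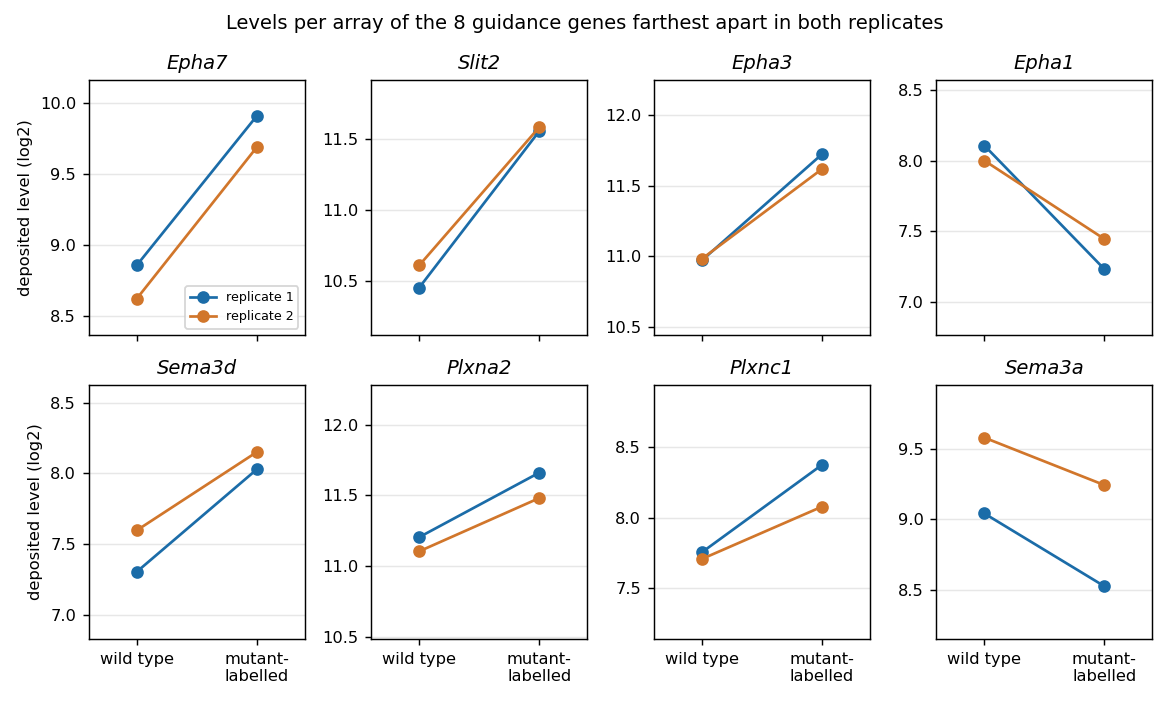
Deposited level (log2) on each of the 4 arrays for the 8 guidance genes with the largest smaller within-replicate difference of 1 sign, each panel spanning the same range of 1.8 log2 units; lines join the arrays of a replicate. In 7 of the 8 panels the groups do not overlap, and in the panel of Sema3a they do.

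EphA receptors are tyrosine kinases on the cell surface that bind the ephrin-A ligands of a neighbouring cell. Of 8 tested, 2 were at least 1.5-fold higher in both replicates and 0 lower by that much, beside 1.47% and 1.15% of all tested genes. Epha7 read 9.91 and 9.69 on the mutant-labelled arrays against 8.86 and 8.62. The groups were a full doubling apart in each replicate, at 1.05 and 1.07. The mean difference was 2.09-fold (9.80 ± 0.16 against 8.74 ± 0.17, SD, n = 2; log2 difference 1.06, SE 0.17, limma adjusted p = 0.529). Epha3 read 11.72 and 11.62 against 10.97 and 10.98, with the wild-type arrays close together. It was 1.62-fold higher (11.67 ± 0.07 against 10.98 ± 0.01, SD, n = 2; log2 difference 0.69, SE 0.12, limma adjusted p = 0.600). Epha1, known from epithelia, had the largest difference in the other direction among the guidance genes. It read 7.233 and 7.446 against 8.107 and 8.001, 1.64-fold lower (log2 difference -0.71, SE 0.15, limma adjusted p = 0.714), with -0.87 and -0.55 within the replicates.

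The remaining EphA receptors were closer together. Epha2, which restrains osteoblasts in mouse cultures, read 9.08 and 9.15 against 9.34 and 9.40, at -0.26 and -0.25 within the replicates and without overlap. Epha4, which takes part in keeping the coronal suture of the mouse skull open, read 9.16 and 8.99 against 9.16 and 8.97, a mean difference of 0.01. Epha5 was lower in replicate 1 and equal in replicate 2, Epha8 equal in replicate 1 and lower in replicate 2, and Epha10 equal in both. The median difference over the 8 EphA receptors was -0.04.

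Ephrin-A ligands are anchored in the membrane by a lipid, and of 5 tested 1 was higher and 2 lower in both replicates, beside 16.8% and 19.5% of all tested genes. Efna5, a ligand of Epha3 and Epha7, read 10.08 and 9.98 against 10.34 and 10.41. It was 1.27-fold lower without overlap of the groups (log2 difference -0.34, SE 0.12, limma adjusted p = 1). Efna2, which osteoclast precursors make in mice, read 9.46 and 9.92 against 9.20 and 9.70, higher by 0.26 and 0.22 within the replicates. Its groups overlapped, since replicate 2 read higher than replicate 1 in both. Efna3 was lower by a smaller amount, at -0.14 and -0.18. Efna1, Efna3 and Efna4 follow one another on chromosome 3 with 0 coding genes between neighbours, and their mean differences were 0.04, -0.16 and -0.14.

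Ephrin-B ligands span the membrane and signal back into their own cell when bound by EphB receptors. Over the 3 ligands and the 4 EphB receptors mean differences ran from -0.25 to 0.05. An unadjusted limma p of 0.05 was passed by 0 of these genes, beside 3.96% of all tested genes. Efnb1, whose loss disturbs the skull sutures in humans, read 11.17 and 11.29 in both groups to 2 decimals, with equal values in replicate 2. Efnb2 read 7.98 and 8.21 against 7.92 and 8.21, and its receptor Ephb4 read 9.56 and 9.58 against 9.61 and 9.58. Both genes held equal values in replicate 2, so for this pair replicate 1 alone carried a difference. Ephb3 and Ephb6 were higher by at most 0.07 in a replicate. Ephb1 was at -0.01 and -0.07, but its replicate 1 values of 4.62 and 4.63 lay below the floor. Its other row held equal values in both replicates. The widest difference among these ligands and receptors was that of Efnb3, with -0.39 and -0.12, whose groups overlapped.

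Semaphorins form the largest family here, and of 20 tested 3 were higher and 8 lower in both replicates, with 5 equal in both, beside 16.8%, 19.5% and 25.7% of all tested genes. Those named Sema3 are secreted and act through neuropilins and plexins. Sema3d read 8.03 and 8.15 on the mutant-labelled arrays against 7.30 and 7.60, apart without overlap. It was 1.56-fold higher (8.09 ± 0.09 against 7.45 ± 0.21, SD, n = 2; log2 difference 0.64, SE 0.17, limma adjusted p = 0.936), with 0.72 and 0.55 within the replicates. Sema3a, its neighbour on chromosome 5 with 0 coding genes between them, lay on the other side of 0. It read 8.53 and 9.24 against 9.04 and 9.58, 1.34-fold lower in the mean (log2 difference -0.42, SE 0.35, limma adjusted p = 1). The groups overlapped, since the offset between replicate numbers was larger than the difference, which was -0.51 and -0.34 within them.

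The other secreted semaphorins split in the same way. Sema3e, a ligand of Plxnd1, was higher by 0.24 and 0.20. It lies on chromosome 5 with 3 coding genes between it and Sema3a. Sema3c, further along chromosome 5, read 10.71 and 10.85 against 10.95 and 11.02, at -0.24 and -0.17 within the replicates and without overlap. Sema3f was lower by a similar amount, at -0.25 and -0.27, and Sema3b at 0.02 in replicate 1 was equal in replicate 2. Sema3g held equal values in both replicates.

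Of the 13 semaphorins outside the Sema3 group 5 were lower in both replicates, 4 were equal in both and 1 was higher in both, beside 19.5%, 25.7% and 16.8% of all tested genes. Sema7a, a lipid-anchored member that binds Plxnc1 and integrins, read 10.12 and 9.99 against 10.43 and 10.18, at -0.25 (SE 0.16) without overlap. Sema4d, the osteoclast signal to Plxnb1, held exactly the same values in both groups, 5.70 in replicate 1 and 5.92 in replicate 2. Sema4f was at -0.27 and -0.21, and the replicate differences of Sema6b, Sema6a and Sema4b ran from -0.35 to -0.01. Sema4c was higher by 0.27 in replicate 1 and by 0.01 in replicate 2, while Sema4g, Sema5b and Sema6d were equal in both replicates. Sema4a, Sema5a and Sema6c differed in replicate 1 alone, with 0.10 for Sema6c and -0.08 for Sema5a.

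**Figure D4:**
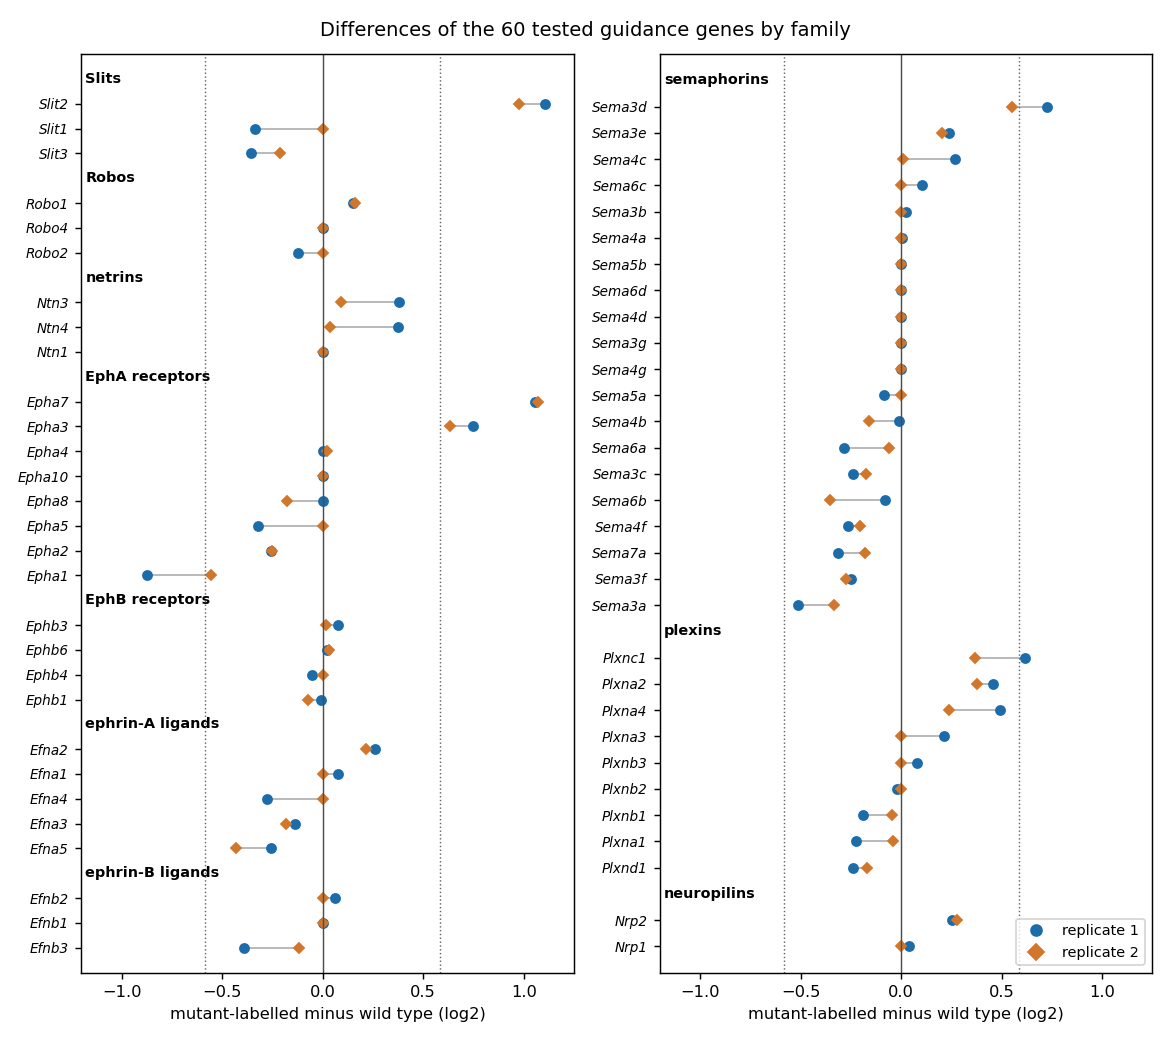
Difference between the mutant-labelled and wild-type array (log2) in replicate 1 (circles) and replicate 2 (diamonds) for each of the 60 tested guidance genes, grouped by family and ordered by the mean; dotted lines mark 1.5-fold. Slit2, Epha7 and Epha3 lie beyond the right line in both replicates, and Sema3d and Plxnc1 in replicate 1 alone.

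Plexins are the signalling receptors of semaphorins, and neuropilins are co-receptors that give the secreted ones a grip on plexins. Of 9 plexins tested 3 were higher and 3 lower in both replicates, beside 16.8% and 19.5% of all tested genes. Plxnc1, the receptor of Sema7a, read 8.37 and 8.08 against 7.75 and 7.71. It was 1.41-fold higher (8.22 ± 0.21 against 7.73 ± 0.03, SD, n = 2; log2 difference 0.49, SE 0.16, limma adjusted p = 1), with 0.62 and 0.37 within the replicates. Plxna2 was 1.33-fold higher, at 11.66 and 11.48 against 11.21 and 11.11, also without overlap. Plxna4 was higher by 0.49 and 0.24, but its groups overlapped.

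On the lower side, Plxnd1, the receptor of Sema3e and known best from vessels, read 9.41 and 9.39 against 9.65 and 9.56, at -0.20 (SE 0.12). Plxna1, which serves Sema3a with Nrp1, read 11.51 and 11.39 against 11.74 and 11.43, and the Sema4d receptor Plxnb1 read 7.77 and 7.69 against 7.96 and 7.73. The groups of both overlapped. Each of these 2 genes had another, dimmer row, which held a difference of -0.01 and 0 for Plxna1 and equal values in both replicates for Plxnb1. Plxnb2 read 12.15 and 11.88 against 12.17 and 11.88, and Plxna3 and Plxnb3 were likewise equal in replicate 2.

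Nrp2 read 10.81 and 10.76 against 10.56 and 10.48, higher by 0.25 and 0.28 with no overlap (1.20-fold, log2 difference 0.27, SE 0.12, limma adjusted p = 1). Nrp1, through which Sema3a acts, read 10.90 and 11.06 against 10.86 and 11.06 and was equal in replicate 2. The Sema3a axis thus showed a lower ligand in both replicates beside differences of 0.02 in Nrp1 and -0.13 in Plxna1, none of which passed the test.

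Netrins are secreted proteins related to laminin that attract or repel through Dcc, Neo1 and the Unc5 receptors. Ntn1, which acts on osteoclasts in mice, held equal values in both replicates at 6.71 and 6.73. Ntn4 read 6.74 and 6.97 against 6.37 and 6.93, and Ntn3 read 8.53 and 8.64 against 8.16 and 8.55. Both were higher by about as much in replicate 1, 0.37 for Ntn4 and 0.38 for Ntn3, and by 0.04 and 0.09 in replicate 2, with overlapping groups. Ntn5 shares its rows with Sec1 and was not analysed, and neither was Ephb2.

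Beyond these families, 55 further receptors and effectors of guidance signalling were tested, among them Dcc, the Unc5 receptors and the collapsin response proteins. Of these 10 were higher and 15 lower in both replicates, beside 16.8% and 19.5% of all tested genes. The adjusted threshold was passed by 0, beside 0% of all tested genes. An unadjusted limma p of 0.05 was passed by 1, beside 3.96%. At least 1.5-fold apart in both replicates was 1, beside 2.63% of all tested genes: Flt1, a VEGF receptor. It read 7.654 and 7.443 against 6.203 and 6.181, a log2 difference of 1.36 (limma adjusted p = 0.324). Unc5b, a netrin receptor that repels, read 10.65 and 10.78 against 11.01 and 11.14, at -0.36 in each replicate. Rnd1, a small GTPase that binds plexins, was higher by 0.75 and 0.48, and Unc5a, Plxdc1 and Vav3 lay at -0.29, -0.49 and -0.43 in the mean, with 1 mutant-labelled value of Vav3, 4.34, below the floor.

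Markers of other cells moved beside these genes. For the marker counts that follow, 16.8% of all tested genes were higher and 19.5% lower in both replicates. By at least 1.5-fold, 1.47% of all tested genes were higher and 1.15% lower in both. Endothelial markers, relevant because Flt1, Plxnd1 and Robo4 are used by vessels, had a summed linear signal of 1108 and 1262 on the mutant-labelled arrays against 677 and 938. Their median difference was only 0.02 over 13 genes, and 0 within each replicate, with 3 higher and 0 lower in both. Of 13 endothelial markers Cdh5 and Flt1 were at least 1.5-fold higher in both replicates. Emcn was too, but its wild-type values of 3.76 and 4.42 lay below the floor, so that it passed the filter through the mutant-labelled arrays alone, while Kdr, Tie1, Cldn5 and Erg held equal values in both. Macrophage markers, given above, were lower in 15 of 16, and Cx3cr1 was equal. All 12 osteoblast markers were above the floor on at least 2 arrays. Col1a1 (-0.01) and Alpl (-0.03) were equal in replicate 2, and Sp7 (0.19) was higher in both. The list was at a median of -0.68 over 12 genes, with 7 lower and 2 higher in both replicates. At least 1.5-fold lower in both were 6 of them: Ibsp (-1.55), Dmp1 (-1.46), Panx3 (-1.24), Mepe (-1.16), Ifitm5 (-0.87) and Phex (-0.83). The summed linear signal of the osteoblast list was 35697 and 40213 against 41141 and 46068. Chondrocyte markers were at a median of -0.36 over 7 genes, 5 lower in both replicates, 3 of them at least 1.5-fold: Col10a1 (-2.05), Cnmd (-1.22) and Col2a1 (-0.95). Their summed linear signal was 8451 and 8940 against 12242 and 12310. Adipocyte markers were at a median of -0.45 over 5 tested genes, 4 lower in both, with Adipoq below the floor on 3 arrays and summed signals of 2142 and 1913 against 3033 and 2490. Smooth muscle markers split, 4 higher and 4 lower in both replicates, with Mylk at 0.77 and summed signals of 22401 and 25716 against 23320 and 26977. Osteoclast markers were at a median of -0.01 over 9 tested genes, with Calcr below the floor. Acp5 (0.30) and Oscar (0.23) were higher in both replicates, and Atp6v0d2 (-1.24) was lower. Summed signals of the osteoclast list were 4017 and 4102 against 3983 and 3973. Neural and Schwann cell markers had a median of -0.08 over 8 tested genes, with Nefl, Nefm and Elavl4 below the floor. Of the tested genes 2 were higher in both replicates, Stmn2 (0.45) and Gap43 (0.69). Lower in both were 3, S100b (-0.38), Sox10 (-0.16) and Snap25 (-0.15). Summed signals of the neural list, whose brightest gene was Stmn2, were 2600 and 3279 against 2337 and 2846. The part of any of these cells in the guidance differences was not tested.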

How the data were processed

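Total RNA of 4 cultures was hybridised to Mouse Gene ST arrays. The deposited values are taken as log2; Partek and RMA are named, without version, role or order, per the submitters' processing notes, while log base, centring and which arrays were normalized together are not stated. Values ran from 2.26 to 14.1. No read depth applies to arrays; the 4 arrays limit the precision. Exactly equal values (no tolerance) were shared by mutant-labelled and wild-type arrays in 15613 of 41345 rows in replicate 1 and 18665 in replicate 2, and by no other pair of arrays (0 rows).

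Rows were named through the platform annotation (23521 with 1 symbol, 1814 with several, 16010 with none). The row with the highest mean stood for a gene. Genes with at least 2 arrays above 4.71 entered limma 3.58.1 under R 4.3.3 (lmFit and eBayes, two-sided, group only), with adjustment over all 17841. The SEs and p-values given for single genes are from this fit, which counts the offset between replicate numbers as spread. The fit was tested on simulated data without equal values, which cannot show how it behaves on the equal values here. Members, lists and tests were chosen with earlier results of these data known. Genes given with all 4 values were those 1.5-fold apart in both replicates, a list of 20 bone members, and per family the member of highest mean and that of largest difference of 1 sign; Epha1, Plxna2 and Slit1 also have all 4 values and were added after their values were seen; others are named from one list by their smaller within-replicate difference, or to account for a member. The labels' tissue tag reads myoblast, whereas titles and cell type tag read osteoblast; titles were followed. Alternatives covered the dim-gene filter, rows per gene, normalization, variance model, replicate block, single arrays left out and thresholds.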

Additional observations from a re-analysis of the deposited data

How the results depend on the processing

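The count of guidance genes past the adjusted limma threshold was 0 without the dim-gene filter, with a floor at the median over rows, with the mean of a gene's rows, after quantile normalization again, with arrays centred on their medians, and with any array left out (lowest and highest 0). It was 1 with an intensity trend (49 of all tested genes, 0.275%) and 2 after a second quantile normalization with the replicate block (399, 2.3%). At an unadjusted limma p under 0.05 it was 7 (707 of all tested genes, 3.96%), and 15 with the replicate block (2319, 13%), a count added after the data were seen. The numbers of the replicates are not said to mark a shared litter or day. Deviations from the group means correlated between arrays of 1 number (Pearson r = 0.92 over 17841 genes, which equal values raise). With the replicate block 0 guidance genes passed the adjusted threshold, the median difference stayed 0, and the smallest adjusted p among them was 0.155. The 3 genes 1.5-fold apart in both replicates became 4 after quantile normalization again, which added Epha1 (2.81% of all tested genes), 1 at 2-fold (Epha7; 1.05% of all) and 8 at a looser limit (6.38% of all), whose smallest difference was 1.26-fold (Sema3a). The median difference was -0.0404 after quantile normalization again (all tested genes -0.0307) and -0.00236 with centred arrays (all tested genes the same). Leaving out single arrays moved it between -0.0704 and 0.0788, and that of all tested genes between -0.162 and 0.153.

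Leaving out an array keeps the offset between replicate numbers in the difference. Signs then turned for Nrp1 (from -0.0813 to 0.123), Plxna1 (from -0.285 to 0.0221), Efnb1 (from -0.0591 to 0.0609), Efnb2 (from -0.117 to 0.177), Efna2 (from -0.0107 to 0.489), Epha4 (from -0.0878 to 0.109), Ntn4 (from -0.0771 to 0.489), Robo2 (from -0.143 to 0.0187) and Plxnb2 (from -0.153 to 0.134). Slit2 ran from 0.962 to 1.12, Epha7 from 0.945 to 1.18 and Epha3 from 0.64 to 0.744. Without a change of sign, the value moved by over 1.5 times for Sema3a (from -0.782 to -0.0674), Sema7a (from -0.376 to -0.121), Sema3c (from -0.275 to -0.137), Plxnb1 (from -0.232 to -0.0039), Ephb4 (from -0.0455 to -0.00667) and Ntn3 (from 0.0379 to 0.433), and Sema4d and Ntn1, at 0 with all arrays, ran to 0.106 and 0.0111 on either side. Epha4 was at -0.00511 after quantile normalization again and Efnb1 at -0.00147 with centred arrays; these values lie close to 0, and the cause was not tested.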
